A study of Mus musculus with 64 samples.

Results

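Olfactory receptors (Olfr genes) and the vomeronasal receptors of the Vmn1r and Vmn2r families together form a very large group of mouse genes, and transposon insertions that carry one of their symbols were collected from 64 mice. The members were the insertions on the autosomes, chromosome 14 left out as the donor chromosome, whose gene annotation in the deposited table began with Olfr, Vmn1r or Vmn2r. There were 472 of them among 299585 insertions, and they hit 249 receptor symbols, against 1987 receptor genes that RefSeq places on the same chromosomes. Olfr symbols took 171 insertions in 114 symbols, Vmn1r symbols 28 in 24 and Vmn2r symbols 273 in 111.

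The insertions came from mice with a constitutive transposase knocked into Rosa26, either piggyBac (PB) or Sleeping Beauty (SB), together with an ITP transposon array. The 30 PB tumours and 11 SB tumours were diffuse large B cell lymphomas taken from spleen, lymph nodes and other sites, and 12 PB tails and 11 SB tails served as control tissue. All mice had a mixed C57BL/6 × 129Sv × FVB background. The SB animals, tails included, came from crosses in which both parents were Blm m3/m3, a genotype that is not stated for the PB animals, so transposase and Blm status cannot be told apart here. No age is given in the sources used here, and each sample was 1 mouse.

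Most sensory neurons of the nose are known to express a single olfactory receptor allele, while the other receptor genes stay packed in silent chromatin. The genes lie in long tandem clusters, and most of them are not known to be expressed outside sensory neurons. PB inserts at TTAA and is known to favour open chromatin and gene starts, whereas SB inserts at TA with little regard to transcription. No expression or chromatin was measured in these samples.

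A receptor position was rarely hit in more than 1 mouse. PB insertions with a receptor symbol occupied 209 positions, of which 4 (1.91%) were hit in 2 samples, beside 4.30% of the 194902 other PB positions. For SB, 2 of 257 receptor positions (0.778%) were hit in 2 samples, beside 0.572% of the others. These 6 shared positions are printed below because they are the most recurrent targets among the receptors, as plus-strand sequence of mm10 with 10 bases on either side of the target motif, which is in capitals; the 4 PB positions tied.
Olfr649 (PB), chr7:104191415-104191438: ccaatctaccTTAAggatgaagga
Vmn2r82 (PB), chr10:79382187-79382210: ttccacatatTTAAcaaagcgata
Olfr56 (PB), chr11:49080223-49080246: gaaaggcacaTTAAcacaatggat
Olfr56 (PB), chr11:49089780-49089803: agatactttcTTAAtacattcccc
Vmn2r95 (SB), chr17:18431775-18431796: agcatttaaaTAtatacatatt
Vmn1r209 (SB), chr13:22806166-22806187: ctgctccaccTAgatgctctgg

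The Vmn2r82 and Vmn2r95 positions were intronic, and the Vmn1r209 position lay in its exon. The Olfr649 position was 1220 bp upstream of the RefSeq gene, which is on the minus strand, and both Olfr56 positions were over 44 kb from it, as described further below. At 4 of the 6 positions (Olfr649, both of Olfr56 and Vmn1r209) the transposon was found in both orientations. The receptor insertion with the most reads in tumours of each system is printed as well. Reads grow with the share of cells that carry an insertion, but also with the total reads of the sample.
Vmn2r111 (PB), chr17:22549171-22549194: ttgacatttgTTAAttgttttatt
Vmn1r31 (SB), chr6:58473090-58473111: cctgtatacaTAcaatattata

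The Vmn2r111 insertion, in an intron, had 182 reads in PB tumour 3 and ranked 1247 by reads among its 10798 insertions. That tumour had 5721822 reads, beside a median of 136578 over PB tumours, so its raw count does not compare with other samples. The Vmn1r31 insertion, 222 bp outside the RefSeq gene, had 331 reads in SB tumour 7 and ranked 21 among 759. None of the 213 PB and 259 SB receptor insertions was among the 10 most covered insertions of its sample. Such places are few, so this absence says little. Among the 100 most covered were 2 PB receptor insertions (0.939%, beside 2.08% of all PB insertions). In SB there were 3 (1.16%, beside 2.44% of all SB insertions). These counts are small and were not tested.

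Receptor symbols made up a larger share of SB than of PB insertions. The share of a sample's insertions was 0.111% ± 0.0535 (SD, n = 30) in PB tumours, with a lowest value of 0%, a median of 0.113% and a highest of 0.256%. In SB tumours it was 0.247% ± 0.0617 (n = 11), from 0.122% over a median of 0.264% to 0.336%. The 2 groups overlapped, but the means differed beyond the spread between mice (permutation test, two-sided, p = 1e-05, the smallest that 100000 resamples can give). In tails the shares were 0.0759% ± 0.0555 for PB (n = 12, from 0% over 0.0678% to 0.197%) and 0.284% ± 0.0873 for SB (n = 11, from 0.178% over 0.288% to 0.432%), and their difference had p = 2e-05 in the same test. Behind these shares stood 181 receptor insertions in PB tumours, 32 in PB tails, 114 in SB tumours and 145 in SB tails, that is 0 to 28 per sample, so that a single sample's share carries a wide counting error.

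Tumours and tails of 1 system were closer to each other. The PB share was 0.0347 percentage points higher in tumours than in tails (permutation test, p = 0.0663), and the SB share was lower in tumours (difference -0.0366 points, p = 0.269). The tumour minus tail difference did not differ between the systems past the threshold (permutation of tissue within system, p = 0.0578). The PB value crossed the threshold under several of the settings listed at the end. It shrank to 0.0203 points (p = 0.266) without insertions of a single symbol, Olfr56, and had the other sign when insertions were weighted by reads (-0.0223 points, p = 0.221).

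Sample names were written in 2 ways, which may mark separate runs. All 11 SB tumours had the joined form, and within it PB tumours (0.101%, n = 22) stayed below SB tumours (p = 1e-05, permutation test). PB tails lay below SB tails by 0.219 points within the joined form (exact permutation test, 5 against 7, p = 0.00253) and by 0.210 points within the other (7 against 4, exact p = 0.00303).

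**Figure D1:**
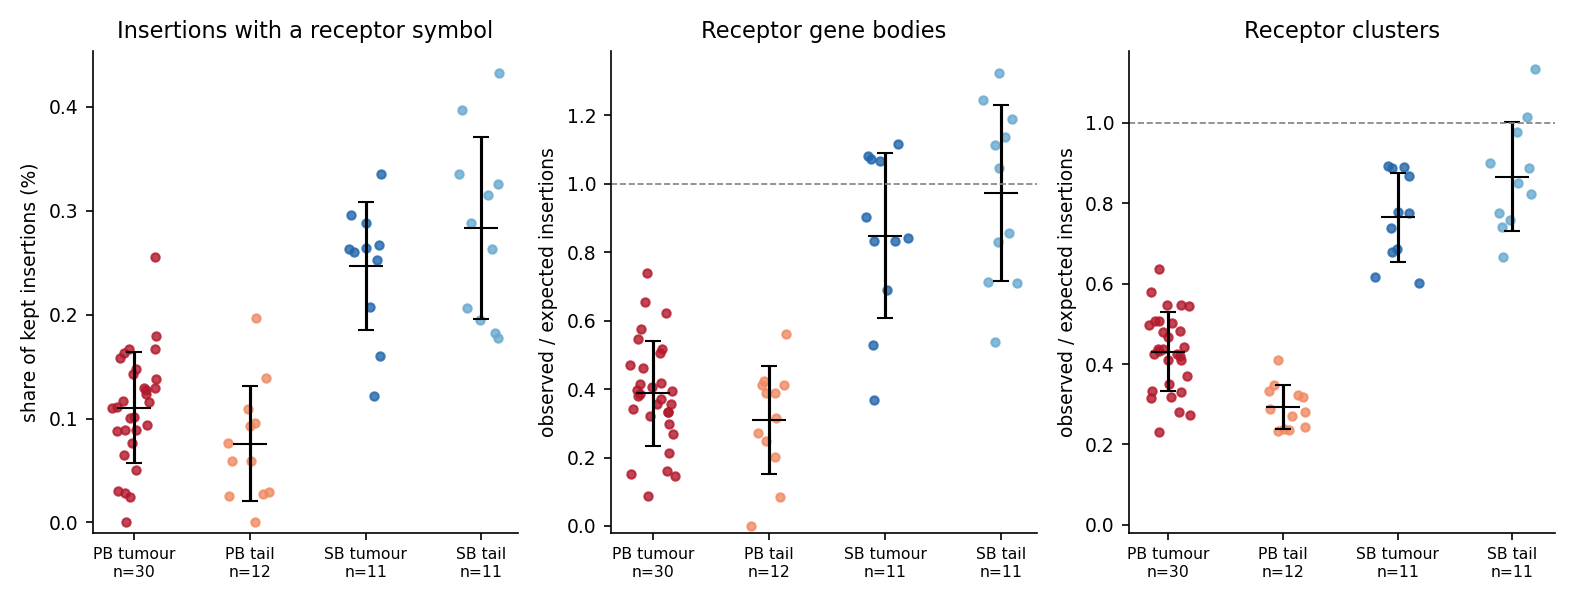
Share of insertions with a receptor symbol (left, percent), ratio of observed to expected insertions in receptor gene bodies (middle) and in receptor clusters (right); each point is 1 mouse, bars are mean ± SD and the dashed line marks 1. All 30 PB tumours and 12 PB tails lie below 1 in both ratio panels, while SB samples lie on both sides of it in gene bodies.

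Because PB and SB have different target motifs, insertions were also set against the number of TTAA or TA sites. The expected number in a region was a sample's insertions on each chromosome times the share of that chromosome's motif sites that lie in the region, so a ratio of 1 means as many insertions as the sites alone would give. Receptor gene bodies, as RefSeq annotates them, held 0.356% of TTAA sites and 0.388% of TA sites. The ratio was 0.387 ± 0.153 in PB tumours (0.0873 to 0.739, median 0.383), 0.309 ± 0.157 in PB tails (0 to 0.561, median 0.351), 0.848 ± 0.242 in SB tumours (0.367 to 1.12, median 0.842) and 0.973 ± 0.256 in SB tails (0.539 to 1.32, median 1.05). PB was below SB in tumours and in tails (permutation test, p = 1e-05 for each).

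The ratio was below 1 in 30 of 30 PB tumours (sign-flip permutation test, p = 1e-05) and in 12 of 12 PB tails (exact sign-flip test, p = 0.000488, the smallest that 12 samples allow). SB insertions were below 1 in 7 of 11 tumours (exact p = 0.0615) and 5 of 11 tails (exact p = 0.732). Neither SB value passed the threshold in gene bodies; the clusters described below gave another result.

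All 3 families showed the low PB level, with few insertions behind the Vmn1r values. Olfr genes, which encode odorant receptors of the main olfactory epithelium, held 62 insertions in PB tumours where 135 were expected, a mean ratio of 0.485 ± 0.405. In SB tumours they held 39 with 46.4 expected, a mean ratio of 0.822 ± 0.528. Vmn2r genes, which encode vomeronasal receptors with a large extracellular domain, held 140 with 383 expected in PB tumours (0.362 ± 0.219) and 101 with 109 expected in SB tumours (0.855 ± 0.369). Vmn1r genes, the other vomeronasal family, have short bodies: 7 insertions with 25.7 expected in PB tumours, 0 with 7.87 expected in PB tails, 8 with 8.30 expected in SB tumours and 12 with 9.68 expected in SB tails. The PB tail value allows up to 3 insertions, and the family ratios were not tested.

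Within receptor genes the shortfall of PB was present in introns and in exons. In PB tumours introns held 170 insertions with 476 expected (ratio 0.357, 95% Poisson interval 0.305 to 0.415) and exons held 39 insertions (0.582, 0.414 to 0.796). In SB tumours the ratios were 0.935 (0.779 to 1.11) in introns and 0.754 (0.473 to 1.14) in exons. These intervals cover counting error only.

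An insertion can be harder to place where its flank does not map uniquely, and receptor genes are repetitive. A flank of 50 bases was unique in the genome for 78.8% of TTAA sites in receptor genes, against 95.3% of all TTAA sites, and the share was 95.3% in Olfr, 78.2% in Vmn1r and 73.4% in Vmn2r genes. Some insertions were placed at sites without a unique flank. Of the insertions with a receptor symbol, 92.4% had a unique flank in SB tails and 93.9% in SB tumours. For PB the values were 96.1% in tumours and 100% in tails. With unique sites alone, observed and expected, the ratios were 0.444 in PB tumours and 0.969 in SB tumours, and their difference kept p = 1e-05 (permutation test).

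Gene deserts, here sites over 100 kb from any gene, were also poor in PB insertions. Their ratio was 0.483 ± 0.0520 in PB tumours, 0.447 ± 0.0270 in PB tails, 0.917 ± 0.0715 in SB tumours and 0.994 ± 0.0524 in SB tails. Receptor genes lay below deserts by 0.0957 in PB tumours (difference -0.0957, lower in 24 of 30, sign-flip permutation test, p = 0.00453) and by 0.138 in PB tails (difference -0.138, lower in 10 of 12, exact p = 0.00879). With unique flanks alone the differences were -0.0388 (p = 0.254) and -0.0748 (exact p = 0.195). In SB samples receptor genes and deserts did not differ past the threshold (exact p = 0.402 in tumours and 0.797 in tails). Other genes had ratios above 1 in every sample, with means of 1.33 in tumours and 1.27 in tails for PB and of 1.15 and 1.10 for SB.

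**Figure D2:**
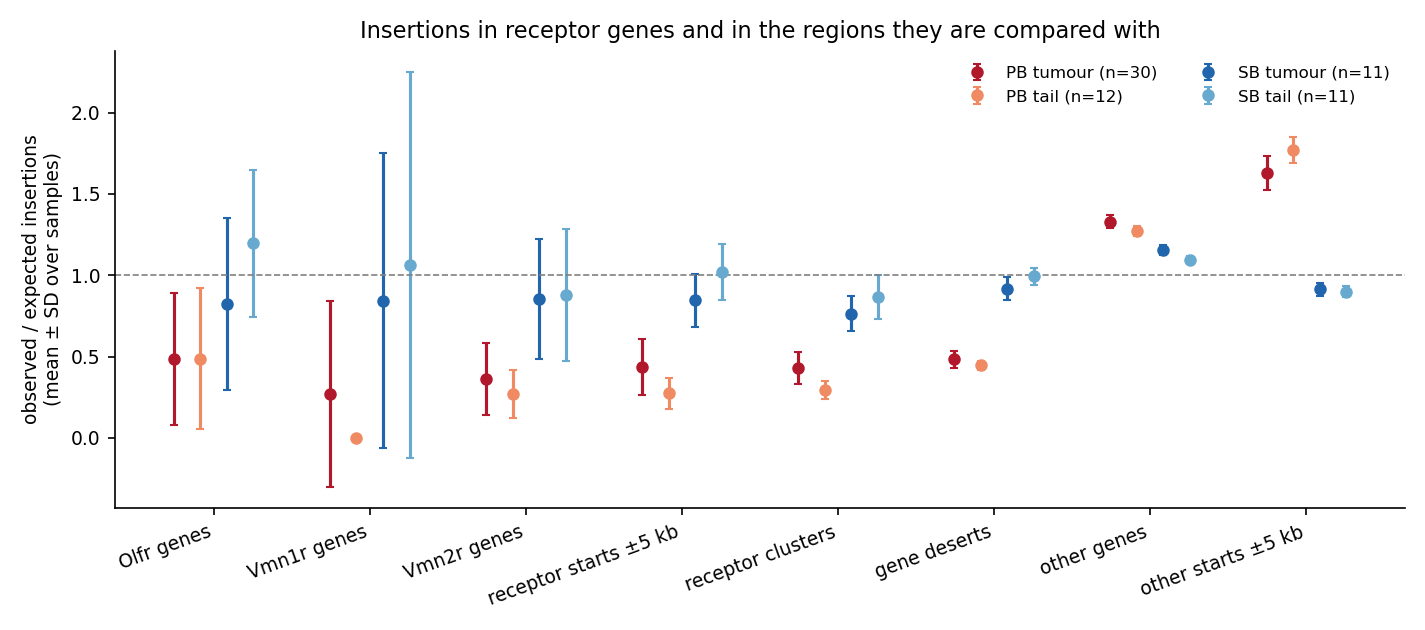
Ratio of observed to expected insertions (y axis, mean ± SD over samples; dashed line at 1) in the 3 receptor families, around receptor starts, in receptor clusters and in the regions they are compared with. In PB the receptor rows lie between 0 (Vmn1r genes in tails) and 0.486 while other genes and other gene starts lie above 1. In SB the receptor rows lie between 0.765 (clusters in tumours) and 1.20 (Olfr genes in tails), and the wide Vmn1r bars rest on 0 to 12 insertions per group.

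Starts of receptor genes had few PB insertions. Within 5 kb of receptor starts the PB ratio was 0.435 ± 0.171 in tumours and 0.274 ± 0.0957 in tails, whereas within 5 kb of other genes' starts it was 1.63 ± 0.105 and 1.77 ± 0.0799. The receptor window was the lower in 30 of 30 PB tumours (sign-flip permutation test, p = 1e-05) and in 12 of 12 PB tails (exact p = 0.000488). For SB the receptor windows were at 0.846 ± 0.161 in tumours and 1.02 ± 0.171 in tails, beside 0.915 ± 0.0399 and 0.900 ± 0.0336 for other genes. The SB tumour difference had an exact p = 0.164; the SB tail windows were higher at receptors by 0.122 (8 of 11 tails, exact p = 0.0371), a call that was lost in windows of 2 kb (exact p = 0.132).

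The receptor genes lie in clusters, which hold many more insertions than the gene bodies and so give steadier values. Runs of at least 10 receptor genes with gaps of at most 200 kb formed 41 clusters of 45.6 Mb in all, with 1773 receptor genes. The cluster ratio was 0.431 ± 0.0974 in PB tumours (0.230 to 0.636, median 0.435; 1463 insertions), 0.294 ± 0.0547 in PB tails (0.234 to 0.410, median 0.284; 301 insertions), 0.765 ± 0.110 in SB tumours (0.601 to 0.892, median 0.776; 790 insertions) and 0.867 ± 0.136 in SB tails (0.666 to 1.13, median 0.851; 979 insertions). PB and SB tumours overlapped only between 0.601 and 0.636, and PB tails lay wholly below SB tails. PB was below SB in both tissues (permutation test, p = 1e-05 each), and the tests on clusters were added after their values had been seen. Clusters held fewer insertions than the sites would give in SB as well: the ratio was below 1 in 11 of 11 SB tumours (exact sign-flip test, p = 0.000977, the smallest that 11 samples allow) and in 9 of 11 SB tails (exact p = 0.0137). SB clusters were also below the gene deserts of the same sample, by a difference of -0.152 in tumours (lower in 8 of 11, exact p = 0.00781) and -0.127 in tails (lower in 9 of 11, exact p = 0.0293). With unique flanks alone the SB tumours stayed below 1 (difference -0.159, exact p = 0.000977), whereas the SB tail call was lost (-0.0558, exact p = 0.246), as were both SB calls against deserts (exact p = 0.0869 and 0.311). PB clusters were below deserts too, with a difference of -0.0520 in tumours (lower in 21 of 30, permutation p = 0.0117) and -0.153 in tails (lower in 12 of 12, exact p = 0.000488), and with unique flanks -0.0193 (p = 0.342) and -0.129 (exact p = 0.000488).

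PB tumours held more cluster insertions than PB tails. The difference was 0.137 (permutation test, p = 9e-05), and it was 0.161 within joined names (exact p = 0.000669) and 0.131 within separated ones (exact p = 0.0155). It was 0.137 as well when all annotated genes were cut out of the clusters (p = 0.00012) and 0.126 without the cluster around the Hbb genes (p = 0.00023). SB tumours were lower than SB tails by 0.102 (difference -0.102, p = 0.0674). The tumour minus tail difference was larger in PB than in SB by 0.239 (tissue permuted within system, p = 0.00012; within joined names 0.225, p = 0.00379). Gene deserts moved the same way with smaller values: PB tumours were 0.0365 above PB tails (p = 0.0276) and SB tumours lower than SB tails (difference -0.0763, p = 0.0124). Relative to the deserts of the same sample the PB clusters stood at 0.901 ± 0.230 in tumours and 0.658 ± 0.117 in tails (permutation test, p = 0.00103). Median reads per insertion outside receptor symbols also differed between these tissues, at 3.13 ± 0.981 in PB tumours and 4.87 ± 0.707 in PB tails on the log2 scale. With insertions of at least 10 reads the PB difference in clusters was 0.148 (p = 0.00269).

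In SB tumours the cluster ratio was higher in samples with more insertions (log10 scale, Pearson's r = 0.831, permutation p = 0.0006, adjusted over 4 relations 0.0024; Spearman's rho = 0.691, permutation p = 0.023, adjusted 0.0922). Without the 2 tumours farthest from the median number, r was 0.715. The rank correlation thus did not pass the threshold after adjustment. In PB tumours, PB tails and SB tails r was 0.0942, 0.213 and 0.138, and the difference between groups was not tested.

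The low PB level ended at the cluster borders. In the 50 kb just inside a border PB tumours had 134 insertions with 277 expected (ratio 0.483, 95% Poisson interval 0.405 to 0.573), and in the 50 kb just outside 289 with 272 expected (1.06, 0.942 to 1.19). PB tails went from 0.421 (0.293 to 0.585) to 0.855 (0.667 to 1.08) over the same border. SB tumours had 0.936 (0.739 to 1.17) inside and 0.813 (0.625 to 1.04) outside, and SB tails 0.907 (0.725 to 1.12) and 0.953 (0.761 to 1.18). Up to 500 kb inside, all PB bins were at 0.608 or less, and all PB bins outside were at 0.855 or more.

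**Figure D3:**
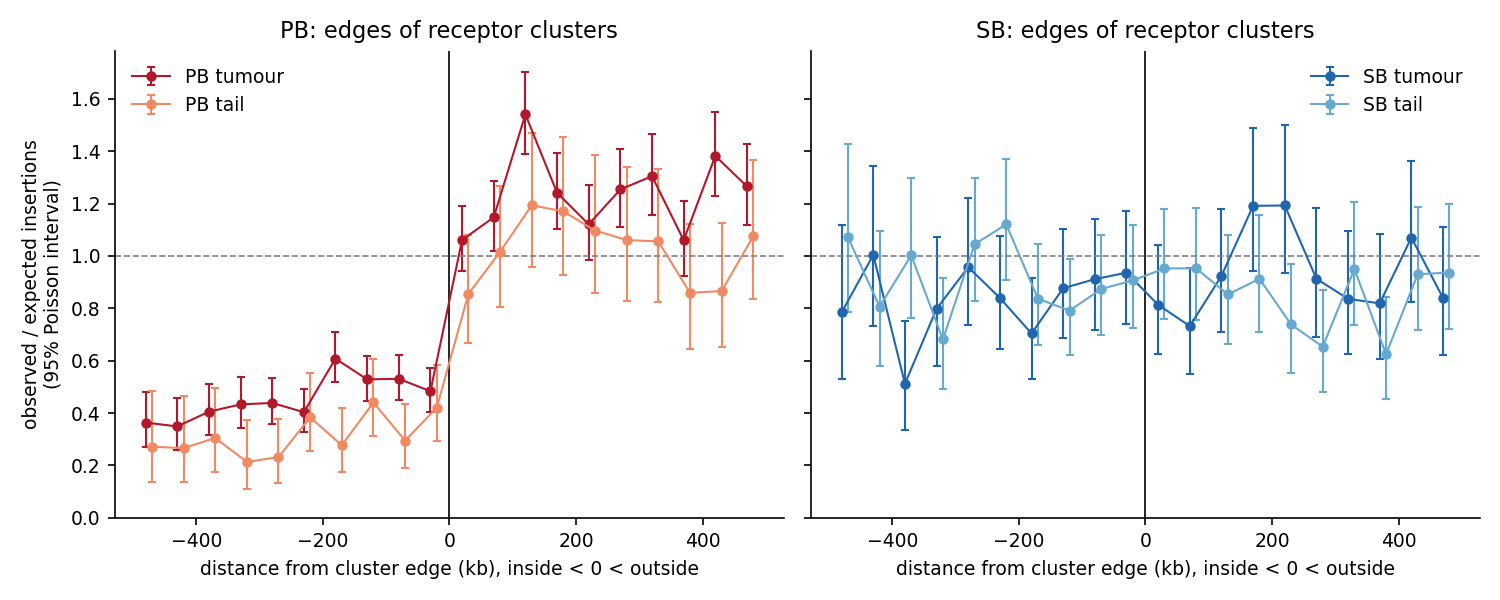
Ratio of observed to expected insertions in bins of 50 kb by distance from the nearest edge of a receptor cluster (x axis in kb, inside below 0), for PB on the left and SB on the right; points are groups with all samples summed and bars are 95% Poisson intervals, which cover counting error only. The PB lines step up at the border, from 0.483 to 1.06 in tumours and from 0.421 to 0.855 in tails, and the SB lines show no step.

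Single clusters followed the sum. In PB tumours 41 of 41 clusters were below a ratio of 1, as they were in PB tails, beside 28 of 41 in SB tumours and 27 of 41 in SB tails. PB was below SB in 37 clusters in tumours and 40 in tails, and PB tails were below PB tumours in 33. The largest cluster, 293 Olfr genes at chr2:85330967-90401674, held 166 PB tumour insertions with 424 expected (0.392, 95% Poisson interval 0.334 to 0.456) and 87 SB tumour insertions with 123 expected (0.707, 0.566 to 0.872).

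The PB tumour ratio was highest, at 0.953, in the cluster of 116 Olfr genes at chr7:102476773-104207006, which surrounds the beta-globin (Hbb) genes. This cluster held 110 PB tumour insertions in 27 of 30 tumours with 115 expected, and 13 PB tail insertions in 7 of 12 tails with 35.7 expected (0.365). In SB it had 29 insertions with 33.1 expected in tumours and 59 with 38.1 expected in tails. The 81 Vmn1r genes at chr7:20101158-23251682 gave the lowest ratio in PB tumours and in both SB groups, with 4 insertions in PB tumours, 2 in PB tails, 6 in SB tumours and 7 in SB tails where 161, 49.8, 54.2 and 62.4 were expected. Only 8.20% of its TTAA sites had a unique flank, and its level cannot be told apart from mappability. In PB tails the lowest ratio was 0, in a cluster of 13 receptor genes at chr17:22916887-23492427 with 11.6 insertions expected.

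**Figure D4:**
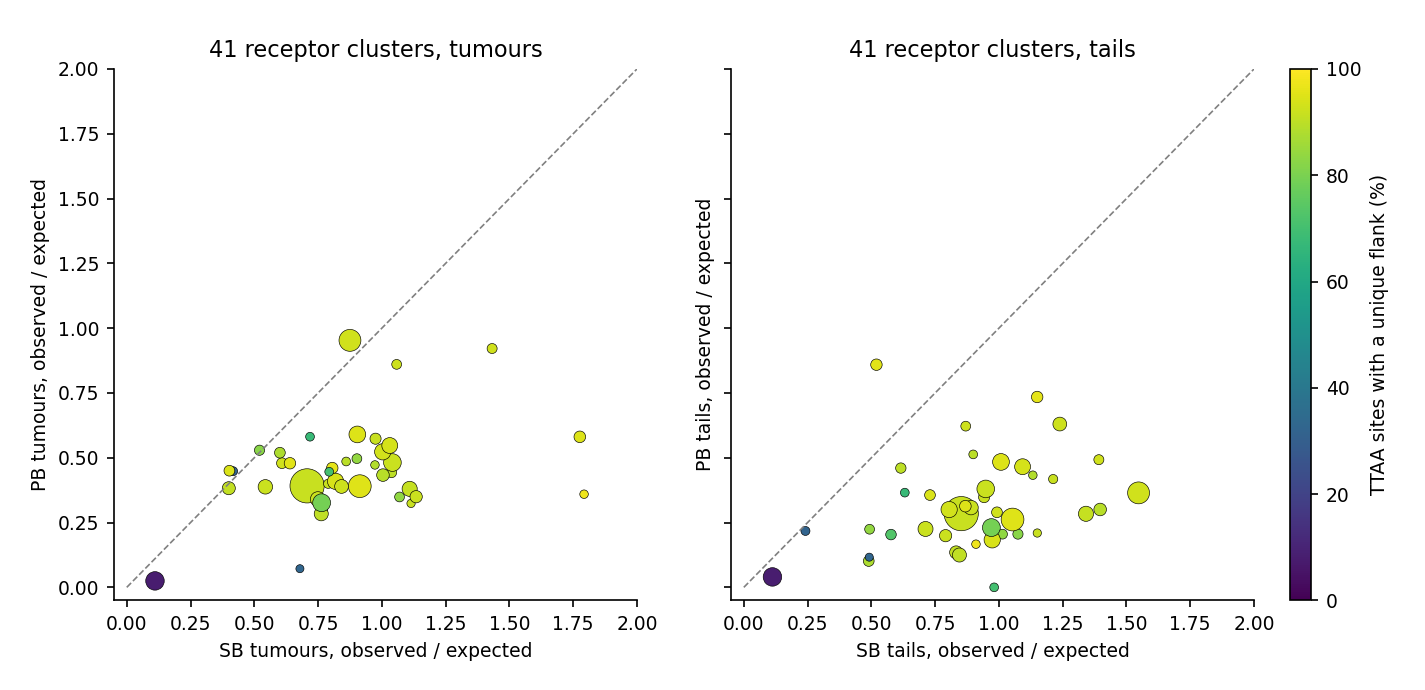
Ratio of observed to expected insertions in PB (y axis) against SB (x axis) for each of the 41 receptor clusters, in tumours on the left and tails on the right; point area grows with the number of receptor genes, colour gives the percentage of TTAA sites with a unique flank and the dashed line marks equal ratios. In tumours 37 clusters and in tails 40 lie below the line, and the dark point near 0 is the poorly mappable Vmn1r cluster.

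No receptor gene was called as a common insertion site by the Poisson model with motif sites alone (TransmicronNULL, Bonferroni-adjusted p below 0.05 and hits in at least 3 samples and 5% of samples). Over all genes it called 3.05% in PB tumours, 0.786% in PB tails, 0.234% in SB tumours and 0.0971% in SB tails, against 0 of 1770 receptor genes with a TTAA site and 0 of 1987 with a TA site. At an unadjusted p under 0.05 there were 27, 11, 48 and 66 receptor genes in the same order (1.53%, 0.621%, 2.42% and 3.32%, beside 16.3%, 11.3%, 6.45% and 5.70% of all genes), and the exact Poisson test called 0 in each group. Receptor genes with any insertion numbered 141 in PB tumours (7.97%, beside 46.7% of all genes), 44 in PB tails (2.49% beside 28.7%), 109 in SB tumours (5.49% beside 23.2%) and 135 in SB tails (6.79%, beside 9615 of 40146 genes); gene length was not matched in these shares.

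The counts per gene were correspondingly small. Among Vmn2r genes, Vmn2r23 (chr6:123702821-123742239), Vmn2r98 (chr17:19053493-19081311) and Vmn2r111 (chr17:22547941-22573273) led the PB symbols with 4 insertions each. Vmn2r-ps120 was among the Vmn2r symbols with 3 in PB. In SB, Vmn2r-ps119, Vmn2r-ps57, Vmn2r109, Vmn2r82 and Vmn2r97 tied with 4 each, in 4 samples each. Among Olfr symbols other than Olfr56 none passed 3 insertions in a system: Olfr649 had 3 and Olfr1033 and Olfr27 had 2 in PB, and Olfr44, Olfr869, Olfr187 and Olfr78 had 3 in SB. Among Vmn1r symbols no count passed 2: Vmn1r2, Vmn1r21, Vmn1r222 and Vmn1r35 were among 7 symbols with 1 each in PB, and Vmn1r209, Vmn1r32, Vmn1r4 and Vmn1r45 had 2 each in SB. A comparison of groups per gene with edgeR's quasi-likelihood test reached only 3 receptor genes, since it needs 10 insertions, and called none after Benjamini-Hochberg adjustment. Of the 4870 genes it tested it called 1.09% as higher and 0.862% as lower in PB than in SB tumours. The percentages were 0.37% and 0.267% in PB than in SB tails. They were 1.38% and 1.85% in PB tumours than in PB tails, and 0.123% and 0.0411% in SB tumours than in SB tails. At an unadjusted p under 0.05, 1 of the 3 passed in PB against SB tumours and 1 in SB tumours against SB tails, and DESeq2 called 0. That gene was Vmn2r1, whose RefSeq body at chr3:64078172-64220847 had 10 insertions in 6 SB tumours with 2.85 expected (log2 fold change over SB tails 2.49, edgeR adjusted p = 0.303). Its GENCODE body is shorter, 27938 bp beside 142676 bp in RefSeq, and only 3 SB tumour insertions carried its symbol.

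The symbol with the most insertions, Olfr56, was set by the annotation. It had 25 insertions in 15 of 30 PB tumours, none in 12 PB tails, 1 in SB tumours and 4 in SB tails. PB tumours had from 0 to 3 each (0.833 ± 1.02), so 15 tumours had insertions and the others were at 0 like the tails. All 30 insertions lay outside the 1215 bp that RefSeq gives the gene (chr11:49134173-49135387, plus strand) and inside the GENCODE gene of 156499 bp (chr11:48978889-49135387). From its motif sites 12.2 insertions were expected in PB tumours, 3.09 in PB tails, 3.09 in SB tumours and 3.40 in SB tails. That longer gene spans Tgtp1 and Tgtp2, which encode interferon-inducible T cell GTPases, Ifi47, an interferon-gamma inducible GTPase gene, and Olfr1396. Ifi47 held 12 of the 25 PB tumour insertions, in 7 tumours with 1.95 expected, and both recurrent Olfr56 positions printed above lie in it. The Poisson model called Ifi47 in PB tumours (Wald test, adjusted p = 6.17e-06), and PB tails had 0 with 0.494 expected. The exact Poisson test, which called fewer genes in all, is not given for Ifi47. In edgeR's comparison of PB tumours with PB tails Ifi47 was not called (log2 fold change 1.92, adjusted p = 0.135).

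With genes defined by the annotation in the deposited table, edgeR called Olfr56 higher in PB tumours than in PB tails (log2 fold change 2.80, adjusted p = 0.015), 1 of 64 genes called higher among 4291 tested (1.49%). This fit was added after the values had been seen, and the fold change against a group at 0 rests on the prior count. In the same fit 1.7% of genes were lower in PB tumours than in PB tails. Olfr56 was the only receptor symbol tested there and was not called in the other 3 comparisons, which called 2.38% as higher and 2.42% as lower in PB than in SB tumours, 1.86% and 1.28% in tails, and 0.14% and 0.0466% in SB tumours than in SB tails.

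**Figure D5:**
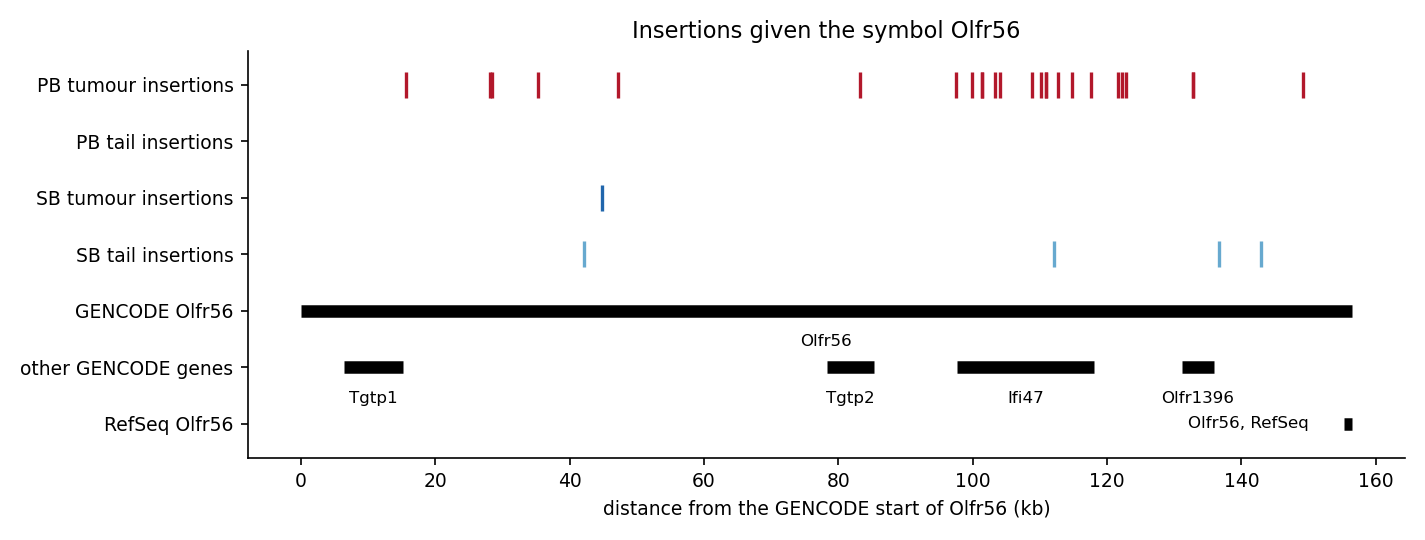
Positions of the 30 insertions with the symbol Olfr56 (ticks, 1 row per group) along the GENCODE gene, with the genes it spans and the RefSeq gene as bars; the x axis is the distance from the GENCODE start in kb. Of the 25 PB tumour insertions 12 lie in Ifi47 and the others are spread along the rest of the gene, and none reaches the RefSeq gene at the right end.

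Annotation mattered beyond this gene. Of the 472 insertions with a receptor symbol 400 lay in RefSeq receptor gene bodies, and 192 others lay in such bodies without the symbol, 129 of them marked as intergenic. GENCODE receptor genes, which often run further upstream, held 462 of the insertions with a receptor symbol and 778 without one. With them the ratio was 0.434 ± 0.128 in PB tumours and 0.282 ± 0.135 in PB tails, a difference past the threshold (permutation test, p = 0.00171; without Olfr56 p = 0.00511) that RefSeq bodies did not give (p = 0.144).

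Median reads and the neighbouring base did not differ between receptor and other insertions past the threshold. The percentage of insertions with at least 10 reads did so in PB tumours, as listed at the end. The median number of reads differed by 0.0240 on the log2 scale in PB tumours (sign-flip permutation test, p = 0.863), by -0.0678 in PB tails, 0.138 in SB tumours and -0.265 in SB tails (exact p = 0.847, 0.589 and 0.162). SB insertions had A at position -3, counted from the first base of the motif, in 71.6% of receptor and 72.4% of other insertions in tumours and in 77.2% and 76.4% in tails (exact p = 0.865 and 0.831), where 32.8% of all TA sites have it. PB insertions had T there in 42.4% and 44.7% in tumours (permutation p = 0.642), with 33.9% of TTAA sites. In PB tails the values were 40.2% at receptor and 46.7% at other insertions. Transposon and gene had the same orientation in 50.9% of receptor insertions in PB tumours, 49.2% in PB tails, 36.4% in SB tumours and 47.8% in SB tails, none of which differed from 50% past the threshold (exact p = 0.0859 in SB tumours).

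Other clustered families were described in the same way, with no test and with no share of unique flanks. Mup genes, which encode urinary pheromone carriers, had 9 insertions with 29.3 expected in PB tumours and 5 with 9.09 in SB tumours. In tails they had 1 with 9.34 (PB) and 1 with 8.88 (SB). Skint genes, expressed in thymus and skin, had 34 with 116 in PB tumours. In SB tumours they had 79 with 37.1, where a single tumour reached a ratio of 16.4 and the median was 1.07. Tails had 19 with 37.0 (PB) and 29 with 36.2 (SB). Defensin genes had 10 with 12.7 in PB tumours and 0 with 4.40 in SB tumours. In tails they had 1 with 4.12 (PB) and 5 with 5.23 (SB). Taste, trace amine and formyl peptide receptor genes had 0 with 4.95 in PB tumours and 0 with 1.69 in SB tumours. Krtap genes had 0 with 1.68 and 1 with 0.562 in the same order. Both lists have too few to place.

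Of 31 listed genes of olfactory signalling and receptor choice on the chromosomes used, the Poisson model called 5 in PB tumours, where it called 3.05% of all genes, and 1 in SB tumours, where it called 0.234%. It called 0 in either tail group. These calls rest on the Wald test. By the exact Poisson test 1.70% of all genes were called in PB tumours and 0.0797% in SB tumours. That test is not given for the listed genes, and calls with few expected insertions may not hold under it. Summed over the list, the ratio was 2.87 in PB tumours and 1.81 without Ebf1, beside 1.33 for the summed insertions of all genes other than receptors. The median of the list's gene ratios was 1.30 in PB tumours, and no such median is given over all genes. The list's median was 0.380 in PB tails, 0 in SB tumours and 0.368 in SB tails, where 16, 13 and 16 of the 31 genes were hit. The summed ratio was above 1 in these groups too. It was 1.55 in PB tails (64 insertions with 41.4 expected), beside 1.27 for genes other than receptors. Without Ebf1 the PB tails had 44 with 31.5 expected. In SB the summed ratio was 2.34 in tumours, beside 1.15 for the other genes, and 1.09 in tails, beside 1.10. These sums were not tested. Eif2ak3, which encodes the kinase PERK of the receptor feedback signal, had 18 insertions in 12 PB tumours with 4.30 expected, and Kdm1a, the histone demethylase LSD1, had 16 in 12 with 4.53 expected. Ric8b, an exchange factor for the olfactory G protein, had 24 in 12 with 7.96 expected, and Gnai2, a G protein subunit of vomeronasal neurons, had 5 in 5 with 0.602 expected. The other call was Ebf1, a B cell and olfactory neuron transcription factor, which was the gene called in SB tumours as well. The roles named are those behind the list, and expression of these genes was not measured. In PB tumours Omp, Cnga4, Trpc2, Gng8 and Gng13 had 0 insertions. At most 0.388 were expected in each of them, so this says little. Without Ebf1 the list held 183 insertions with 101 expected in PB tumours and 29 with 28.9 in SB tumours. By edgeR 13 of the listed genes could be tested. Ric8b was higher in PB than in SB tumours (edgeR adjusted p = 0.0487), as were 1.09% of the genes tested. Ebf1 was higher in tumours than in tails of both systems, where 1.38% (PB) and 0.123% (SB) of the genes tested were. None of the listed genes was called as lower in any of the 4 comparisons, though some had fold changes below 0.

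The number of insertions per sample ran from 756 to 10798 in PB tumours, 2033 to 7361 in PB tails, 759 to 8785 in SB tumours and 2537 to 7148 in SB tails. Only PB tumour 13 and SB tumour 7 had under 1000, and without them the PB tumour share of 0.114% was above that of PB tails past the threshold (permutation test, p = 0.0363).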

How the data were processed

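Insertions came from quantitative insertion site sequencing of genomic DNA. The values deposited by the authors are read counts per insertion, mapped to mm10 per the labels; the aligner is not given in the sources used here. Each of 385883 lines was assigned to its closest target motif, at most 5 bp away, and counted once per sample and position; a normalised coverage column (1 column) was not used. Chromosome 14 and the sex chromosomes were left out. Motif sites, gene bodies and sequences came from the RefSeq annotation of the same build, and GENCODE M21 was an alternative. Ratios, permutation tests (100000 resamples; exact where a group was small) and sign-flip tests over samples were run in Python 3.11.15 with numpy 2.4.6 and scipy 1.17.1. Gene-level counts were tested with a Wald test of a Poisson model (Bonferroni) and with edgeR 4.0.16 on genes with at least 10 insertions, with an offset for motif sites (Benjamini-Hochberg). DESeq2 1.42.0 was an alternative. Both gene-level tests were tested on simulated data. The genes named are the 4 most hit per system and family (Vmn2r97 and Olfr78, which tied, were added) and those called. Shared positions were limited to 3 per system, except that 4 were kept in PB because they tied. Members, lists and tests were chosen with earlier results of these data known. Each sample is 1 mouse, so p-values of the permutation, sign-flip, edgeR and DESeq2 tests measure the spread between mice. Those of the Poisson model take the summed insertions of a group as independent and cover counting error only.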

Additional observations from a re-analysis of the deposited data

Results flagged for a closer look

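The difference between tumours and tails in the ratio of receptor clusters was not the same in the 2 systems: the PB difference exceeded the SB difference by 0.239 (tissue permuted within system, p = 0.00012), with PB tumours above PB tails and SB tumours below SB tails. Gene deserts differed in the same direction by 0.113 (p = 0.00078). Read depth per insertion and the way names were written differed between groups as well. The cluster value was 0.287 with at least 10 reads (p = 0.0002) and 0.225 within joined names (p = 0.00379), and that of deserts was 0.116 within joined names (p = 0.0046).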

How the results depend on the processing

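Of 297 alternative values for results about receptors 264 stayed on their side of the threshold, and no value past the threshold reversed. Several values that missed it changed sign under 1 or more alternatives without passing it, among them the SB tail gene ratio against 1 and against deserts, the PB share in tumours over tails weighted by reads (-0.0223) and the SB share with chromosome 14 kept (0.0200). PB stayed below SB past the threshold in share, gene ratio and cluster ratio, in tumours and in tails, under every alternative run. The PB share in tumours over tails (0.0347) passed the threshold with chromosome 14 kept (0.0357), medians (0.0455), joined names (0.0463), GENCODE bodies (0.112) and without samples under 1000 insertions (0.0385), as did the difference between systems with GENCODE bodies (0.207). The PB gene ratio did so with GENCODE bodies (0.152, and 0.135 without Olfr56), and its difference between systems with at least 10 reads (0.421). PB tumour receptors against deserts lost the call with at least 10 reads (-0.0406), unique flanks (-0.0388), GENCODE bodies (-0.0493) and separated names (-0.0351). PB tails lost it with unique flanks (-0.0748), without pseudogenes (-0.124), and within joined (-0.181) and separated names (-0.107); their ratio less 1 within joined names was -0.743, where 5 samples cannot reach the threshold. SB tumour gene ratios fell below 1 past the threshold with expectation over all chromosomes (-0.195), GENCODE bodies (-0.162, and -0.156 without Olfr56) and medians (-0.158). Clusters against deserts lost the call in PB tumours with at least 10 reads (-0.0424) and unique flanks (-0.0193), and with unique flanks in SB tumours (-0.0835) and SB tails (-0.0548), whose ratio less 1 was then -0.0558. SB tail start windows of 2 kb (0.136) lost the call. With at least 10 reads SB tumour clusters fell below tails (-0.139) and SB tumour orientation below 50% (-15.5 points); the PB tumour percentage of insertions with 10 reads was 7.41 points higher at receptors (p = 0.0452). Vmn2r1 was the 1 receptor gene called in SB tumours with Benjamini-Hochberg, and Olfr56 the 1 called by edgeR with symbols of the deposited table. Where no cause is named, the cause was not tested. Over all genes the Poisson calls of 1170, 301, 94 and 39 became 651, 77, 32 and 13 with the exact test and 3044, 964, 307 and 165 with Benjamini-Hochberg, and 479, 198 and 61 in the first 3 groups with at least 10 reads. edgeR's split of 53 higher and 42 lower genes in PB against SB tumours was 81 and 18 with TMM, and its 67 and 90 in PB tumours against tails 138 and 48; DESeq2 gave 39 and 8, and 53 and 13. No paired analysis was possible because each animal code in the sample names occurs once and the columns carry no replicate numbers; the leading numbers that some tumours and tails share are not explained in the sources used here. Small receptor counts limit all single-gene statements.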
